A study of Mus musculus with 48 samples.

Results

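The circadian clock genes were followed as a set of 10 genes, taken by gene symbol from the deposited count table of 55486 genes. They are Arntl, Clock, Per1, Per2, Per3, Cry1, Cry2, Nr1d1, Nr1d2 and Dbp, and all 10 were found under 1 identifier each. The study deleted QPCTL, a Golgi glutaminyl cyclase, and compared QPCTL knockout with wild-type littermates of the C57/Bl6JR strain by bulk RNA sequencing of 48 mouse samples. The columns of the count table carry a tissue and a running number but no genotype, so genotypes could not be compared in the counts and each tissue below mixes both. The time of day of harvest is not in the labels.

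Values were used from 3 tissues. The tumour group was live cells without surface CD45, sorted from B16F10 melanomas 14 days after inoculation, with 6 knockout and 6 wild-type samples. In each of these the host and the inoculated tumour cells had the same QPCTL genotype. The bone marrow group was whole marrow of mice aged 10 to 15 weeks at baseline, with 4 knockout and 4 wild-type samples. The spleen group was whole spleen from baseline mice of the same age range, also with 4 knockout and 4 wild-type samples. The 20 lymph node columns do not show whether the mouse bore a tumour and were not used. In bulk RNA, fewer cells of a type and less RNA per cell cannot be told apart, and sorting, tissue, tumour and age cannot be told apart between the tumour group and the organs.

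The clock is a feedback loop of transcription. Arntl (also called Bmal1) and Clock form a dimer that binds E-box elements and drives the Per, Cry, Nr1d and Dbp genes. The PER and CRY proteins then inhibit that dimer, the NR1D receptors repress Arntl through ROR elements, and DBP acts on D-box elements. In most tissues of the mouse, Arntl transcripts therefore peak at about the opposite time of day to those of Nr1d1 and Dbp.

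Low assigned counts limited what could be seen. Each column is the library of 1 sample. Assigned counts per column were 54117 to 510363 in tumour cells, 227240 to 637985 in bone marrow and 219229 to 626316 in spleen. The labels give an average of 18 M reads per sample. Why assigned counts were so far below the reads was not tested. At the median depth, 1 count was worth 3.28 CPM (counts scaled to a library of 1000000) in tumour cells, 2.36 CPM in bone marrow and 3.11 CPM in spleen. The 6 melanoma and melanocyte markers followed the tissue labels. They summed to a median of 4148 CPM in tumour cells, against 92.1 CPM in bone marrow and 235 CPM in spleen. Ptprc, which encodes the CD45 used in the sort, was at 0 in all 12 tumour columns, as were the 4 B cell and 5 neutrophil markers. The 4 T cell markers summed to a median of 5.66 CPM in tumour columns (highest 22.1), against 7.60 CPM in bone marrow and 92.4 CPM in spleen, and 2 of the 4 were at 0 in every tumour column. Of the 4 T cell markers, Cd4 was higher and Cd3d lower in tumour cells than in bone marrow. The 3 macrophage markers summed to a median of 6.42 CPM in tumour columns (highest 24.7), against 44.96 CPM in bone marrow and 118 CPM in spleen. The 3 fibroblast markers summed to 17.5 to 1507 CPM in tumour columns, with a median of 58.6 CPM. Their median sum was 0 CPM in bone marrow and 82.9 CPM in spleen. Col1a1 and Col3a1 were higher in tumour cells than in spleen, and Pdgfra was lower. The neutrophil markers summed to a median of 17399 CPM in bone marrow and 262 CPM in spleen. The part of these cell types in the differences between tissues was not tested. Of the spleen columns, 3 stood apart from the rest, with mean rank correlations to the other spleen columns of 0.589 to 0.695, against 0.756 to 0.786 for the other 5. In those 3 columns Ptprc was at 72.4 to 151 CPM, against 327 to 477 CPM in the other 5, while erythroid markers were at 95.8, 2942 and 3005 CPM, against 324 to 835 CPM in the other 5. The shallowest tumour column also stood apart, at 0.662.

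The strand setting used in the counting was not given. The library kit keeps strand, and mt-Nd6, the coding gene on the opposite mitochondrial strand to the other 12, had more counts than every one of those 12 in 27 of 28 columns. Whether the counts of a gene come from its own transcripts was not tested. Levels and differences given for a gene are therefore those of the counts assigned to it. In GENCODE release M21, 4 members share exon bases with a gene on the other strand. Nr1d1 shares 263 bases with Thra, Dbp 539 with Sphk2, Cry2 295 with D930015M05Rik and Arntl 33 with Gm45355. The other 6 members share none.

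Per kilobase of exon, Nr1d1 had the highest assigned counts of the members in every tissue. It averaged 11.6 ± 2.8 CPM per kilobase in tumour cells, 22.2 ± 5.6 in bone marrow and 21.1 ± 6.5 in spleen (SD, n = 12, 8 and 8). Dbp was next in every tissue, at 3.13 CPM per kilobase in tumour cells, 6.63 in bone marrow and 7.10 in spleen. Per3 was the lowest in all of them, at 0.06 CPM per kilobase in tumour cells, 0.26 in bone marrow and 0.24 in spleen. Nr1d1 and Dbp share exon bases with Thra and Sphk2 on the other strand. The part of those genes in this order was not tested.

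**Figure D1:**
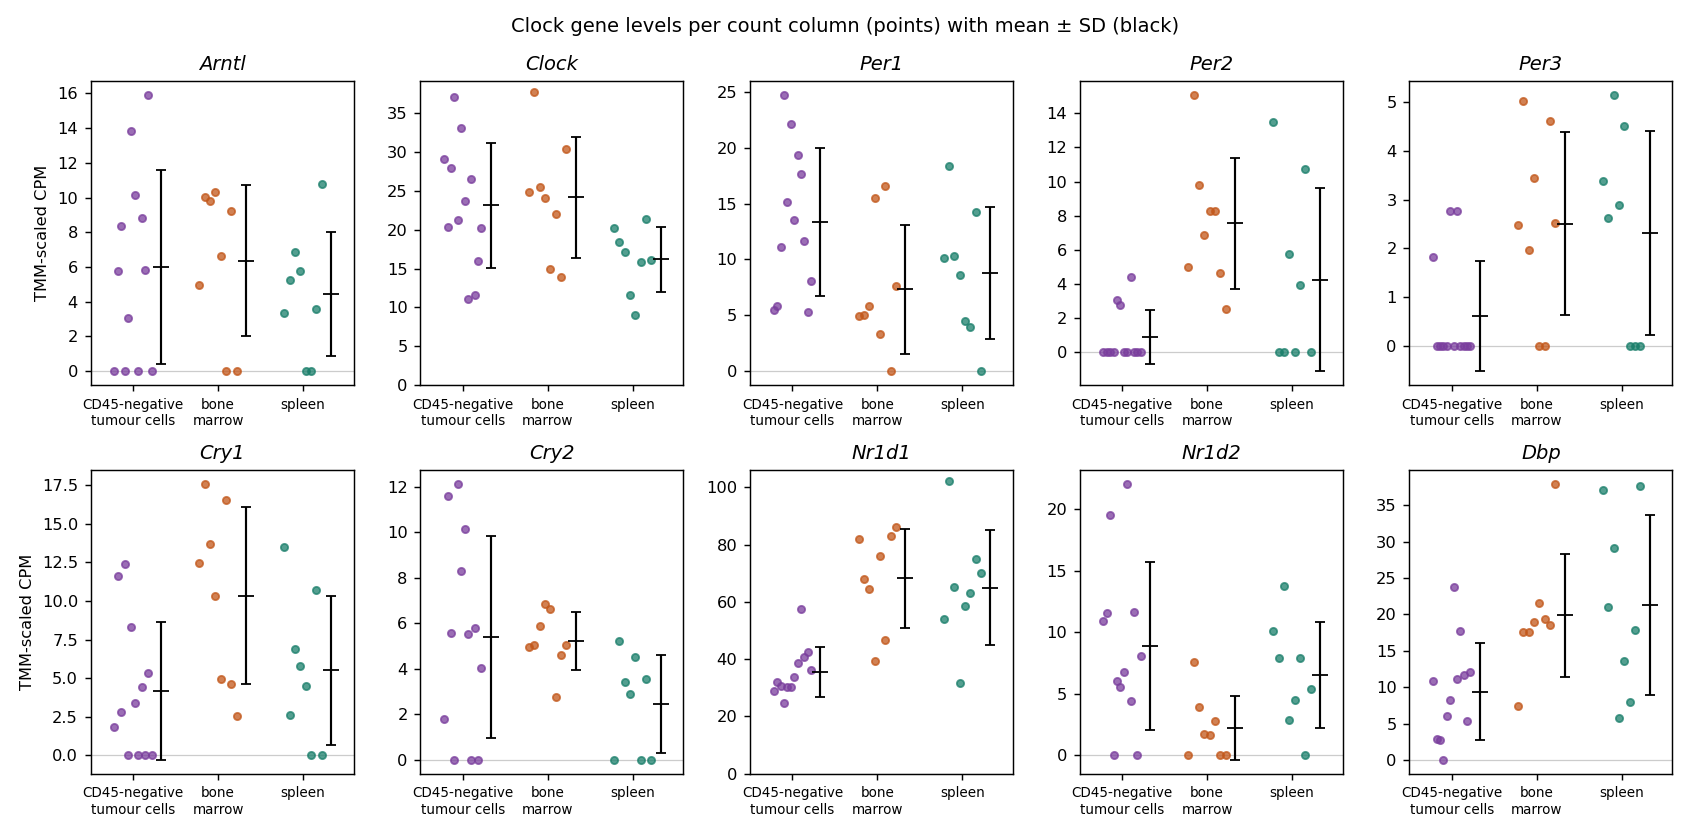
CPM scaled by the trimmed mean of M values (TMM) is on the vertical axis for each of the 10 clock genes, with 1 point per count column of CD45-negative tumour cells (12), bone marrow (8) and spleen (8) and the mean ± SD in black. Nr1d1 and Dbp sit lower in tumour cells than in both organs, and Per2 is at 0 in 9 of 12 tumour columns.

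At the usual minimum count of 10 per gene, only Nr1d1 of the 10 members was deep enough to be tested. The members are therefore described from a fit of edgeR's quasi-likelihood test over all 24548 genes with at least 1 count, with p-values adjusted over all of them by the Benjamini-Hochberg method. In that fit 5 of 10 members passed an adjusted p of 0.05 between tumour cells and bone marrow, where 35% of all genes tested did. Of these, 4 were lower in tumour cells and 1 was higher, against 19.8% and 15.2% of all genes. Between tumour cells and spleen 2 of 10 passed, both lower in tumour cells, against 33.8% of all genes in either direction and 21.7% lower. Between bone marrow and spleen 0 of 10 passed, against 19.4% of all genes, with 1 member at an unadjusted p below 0.05 and 0 called by DESeq2. The median log2 fold change of the members was -0.55 for tumour cells minus bone marrow, -0.15 for tumour cells minus spleen and 0.26 for bone marrow minus spleen. Over all genes it was 0, -0.22 and -0.13. The comparisons share groups, so their values are not independent of each other.

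**Figure D2:**
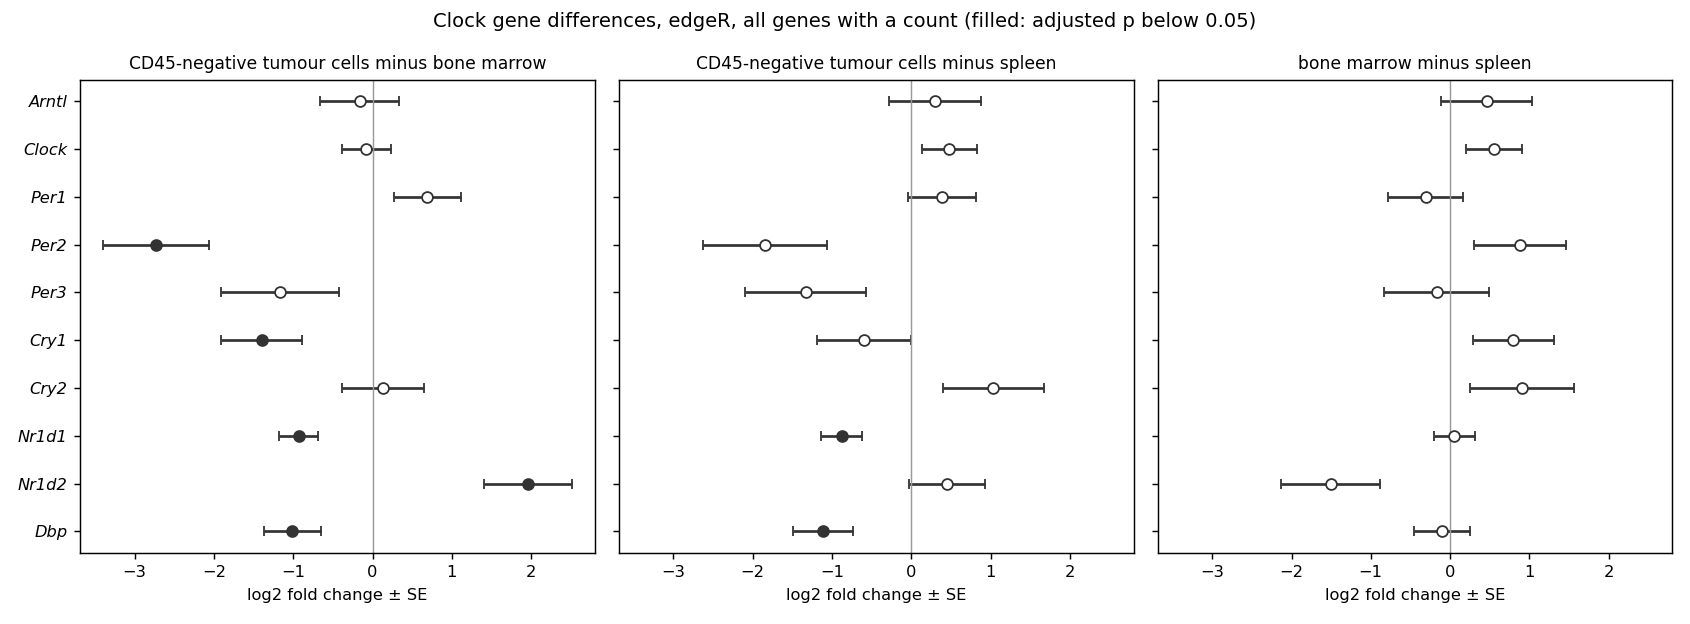
Log2 fold changes (horizontal axis, with bars of 1 SE) of the 10 clock genes are shown for tumour cells minus bone marrow, tumour cells minus spleen and bone marrow minus spleen, with filled points at an adjusted p below 0.05. There are 5 filled points in the first panel, 2 in the second and 0 in the third.

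Neither activator passed the test in any comparison. Clock, which encodes the partner of ARNTL, ran at 11.1, 22.5 and 37.1 CPM in tumour cells (lowest, median and highest of 12 columns), at 13.9, 24.5 and 37.7 CPM in bone marrow and at 9.03, 16.7 and 21.4 CPM in spleen. The ranges overlapped between all 3 tissues. Its log2 fold change was -0.08 ± 0.31 (SE, edgeR adjusted p = 0.933) for tumour cells minus bone marrow. It was 0.48 ± 0.34 (adjusted p = 0.300) for tumour cells minus spleen and 0.56 ± 0.35 (adjusted p = 0.314) for bone marrow minus spleen. Arntl averaged 5.98 ± 5.58 CPM in tumour cells, 6.37 ± 4.35 CPM in bone marrow and 4.45 ± 3.58 CPM in spleen. It had 20 counts in all in tumour cells, 23 in bone marrow and 12 in spleen, and was at 0 in 4 of 12 tumour columns, 2 of 8 bone marrow columns and 2 of 8 spleen columns. The 95% counting interval of its summed tumour to bone marrow ratio ran over 0.447 to 1.63.

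Among the period genes, which encode inhibitors of the activator dimer, Per2 (ENSMUSG00000055866, chromosome 1, 91415982 to 91459324, minus strand) was lower in tumour cells than in bone marrow. Per2 had 3 counts over 12 tumour columns, 27 over 8 bone marrow columns and 10 over 8 spleen columns. It was at 0 in 9 of 12 tumour columns, in 0 of 8 bone marrow columns and in 4 of 8 spleen columns. The summed level in tumour cells was 0.110 times that in bone marrow (95% counting interval 0.0213 to 0.356) and 0.217 times that in spleen (0.0384 to 0.844). The difference from bone marrow passed the test (edgeR adjusted p = 0.000236). The difference from spleen did not (adjusted p = 0.0552), and passed without the 3 spleen columns that stood apart (adjusted p = 0.0270), where 34.6% of all genes passed.

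Per1 did not pass in any comparison. It ran at 5.30, 12.6 and 24.7 CPM in tumour cells, at 0, 5.45 and 16.5 CPM in bone marrow and at 0, 9.39 and 18.4 CPM in spleen. The ranges overlapped, and the log2 fold change for tumour cells minus bone marrow was 0.69 ± 0.42 (SE, edgeR adjusted p = 0.198). Per3 had 3 counts in all in tumour cells, 8 in bone marrow and 7 in spleen, and its summed level in tumour cells was 0.370 times bone marrow (0.0632 to 1.54) and 0.310 times spleen (0.0518 to 1.36).

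Of the cryptochromes, which inhibit the same dimer, Cry1 (ENSMUSG00000020038, chromosome 10, 85131700 to 85185064, minus strand) was lower in tumour cells than in bone marrow. Cry1 ran at 0, 3.09 and 12.4 CPM in tumour cells, at 2.53, 11.4 and 17.6 CPM in bone marrow and at 0, 5.14 and 13.5 CPM in spleen. Tumour columns were mostly below the bone marrow columns, with overlap, and 4 of 12 were at 0. The log2 fold change for tumour cells minus bone marrow was -1.40 ± 0.51 (SE, edgeR adjusted p = 0.0185). Against a fold of 1.5 it did not pass (adjusted p = 0.0539). It was -0.60 ± 0.59 for tumour cells minus spleen (adjusted p = 0.427). Cry2 averaged 5.41 ± 4.44 CPM in tumour cells, 5.22 ± 1.29 CPM in bone marrow and 2.46 ± 2.16 CPM in spleen, and passed in no comparison. It had 21 counts in tumour cells, 19 in bone marrow and 7 in spleen.

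Of the related receptors that repress Arntl, Nr1d1 was lower and Nr1d2 higher in tumour cells than in bone marrow. Nr1d1 (Rev-erb alpha, ENSMUSG00000020889, chromosome 11, 98767932 to 98775333, minus strand, GRCm38) ran at 24.7, 32.9 and 57.5 CPM in tumour cells, at 39.5, 72.0 and 86.0 CPM in bone marrow and at 31.7, 64.2 and 102 CPM in spleen. Tumour columns were mostly the lower ones, and both organ ranges overlapped with theirs at the lower end. The log2 fold change of Nr1d1 was -0.93 ± 0.25 for tumour cells minus bone marrow (edgeR adjusted p = 0.000772) and -0.88 ± 0.26 for tumour cells minus spleen (adjusted p = 0.00261). With the minimum count of 10 it was -0.80 ± 0.20 (adjusted p = 0.000495) and -0.73 ± 0.20 (adjusted p = 0.00191), where 70.1% and 68.1% of 5143 genes passed. Against a fold of 1.5 in place of no change, Nr1d1 no longer passed in either, with or without the minimum count. Between bone marrow and spleen its log2 fold change was 0.05 ± 0.26 (adjusted p = 0.958), and it did not pass with the minimum count either, where 38.4% of genes did. Thra, the receptor gene on the other strand, was higher in tumour cells than in bone marrow (log2 fold change 1.06 ± 0.27) and lower in bone marrow than in spleen (-1.32 ± 0.29), and its part in the Nr1d1 values was not tested.

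Nr1d2 (Rev-erb beta, ENSMUSG00000021775, chromosome 14, 18204054 to 18239127, minus strand) was the member that rose relative to bone marrow. It ran at 0, 7.42 and 22.1 CPM in tumour cells, at 0, 1.69 and 7.54 CPM in bone marrow and at 0, 6.63 and 13.7 CPM in spleen. It had 36 counts in tumour cells, 8 in bone marrow and 19 in spleen. Most tumour columns lay above most bone marrow columns, and the ranges overlapped. The log2 fold change for tumour cells minus bone marrow was 1.96 ± 0.55 (SE, edgeR adjusted p = 0.00173). It was 0.45 ± 0.48 for tumour cells minus spleen (adjusted p = 0.471). Bone marrow minus spleen gave -1.504 ± 0.62 (adjusted p = 0.0743), and -1.52 ± 0.58 with an adjusted p of 0.0434 at a minimum count of 2, where 28.8% of 11864 genes passed.

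Dbp (ENSMUSG00000059824, chromosome 7, 45705088 to 45710203, plus strand), a clock output that encodes an activator at D-box elements, was lower in tumour cells than in both organs. It ran at 0, 9.59 and 23.7 CPM in tumour cells, at 7.46, 18.7 and 37.96 CPM in bone marrow and at 5.77, 19.4 and 37.7 CPM in spleen. All 3 ranges overlapped. The log2 fold change was -1.01 ± 0.36 for tumour cells minus bone marrow (SE, edgeR adjusted p = 0.0182) and -1.11 ± 0.38 for tumour cells minus spleen (adjusted p = 0.0123). Against a fold of 1.5 Dbp passed in neither (adjusted p = 0.114 and 0.0782). Sphk2, on the other strand, averaged 79.4 CPM in tumour cells, 77.9 CPM in bone marrow and 196 CPM in spleen. It was lower in tumour cells than in spleen by a log2 fold change of -1.28 ± 0.21, and its part in the Dbp values was not tested. Of the 6 members that share no exon with another strand, 3 passed between tumour cells and bone marrow, 0 between tumour cells and spleen and 0 between bone marrow and spleen, under edgeR without a minimum count, against 35%, 33.8% and 19.4% of all genes. At an unadjusted p below 0.05 there was 1 of the 6 in each of the last 2 comparisons. DESeq2 called 2 of the 10 members between tumour cells and spleen and 0 between bone marrow and spleen, where it called 41.4% of 16457 and 22.6% of 15981 genes.

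Promoter sequence was read from RefSeq (GRCm38.p6) for the 250 bases before each annotated start, with 13 windows for 9 of the 10 members. The windows of Cry1, Nr1d1, Nr1d2 and Dbp are printed because these are the members with a window that passed between tumour cells and bone marrow. No window was read for Per2, the other member that passed. Capitals mark an E-box (CACGTG) or an E-prime box (CACGTT, here on the other strand as AACGTG).
Cry1, chr10:85185055-85185304, minus strand: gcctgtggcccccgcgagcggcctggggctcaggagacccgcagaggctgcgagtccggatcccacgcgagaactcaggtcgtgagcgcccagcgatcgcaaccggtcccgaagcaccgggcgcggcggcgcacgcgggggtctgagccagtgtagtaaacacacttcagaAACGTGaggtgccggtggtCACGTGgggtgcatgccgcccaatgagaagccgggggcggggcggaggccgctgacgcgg
Nr1d1, chr11:98775378-98775627, minus strand: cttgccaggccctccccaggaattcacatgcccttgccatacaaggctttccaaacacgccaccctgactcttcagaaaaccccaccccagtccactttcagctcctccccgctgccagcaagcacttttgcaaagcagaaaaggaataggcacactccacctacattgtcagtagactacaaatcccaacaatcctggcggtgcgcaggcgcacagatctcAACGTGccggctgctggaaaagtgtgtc
Nr1d2, chr14:18239107-18239356, minus strand: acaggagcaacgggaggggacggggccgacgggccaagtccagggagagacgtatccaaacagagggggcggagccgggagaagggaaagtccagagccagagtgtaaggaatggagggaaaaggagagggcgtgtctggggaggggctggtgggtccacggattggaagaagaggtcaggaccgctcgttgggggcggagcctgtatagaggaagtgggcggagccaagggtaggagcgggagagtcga
Dbp, chr7:45704997-45705246, plus strand: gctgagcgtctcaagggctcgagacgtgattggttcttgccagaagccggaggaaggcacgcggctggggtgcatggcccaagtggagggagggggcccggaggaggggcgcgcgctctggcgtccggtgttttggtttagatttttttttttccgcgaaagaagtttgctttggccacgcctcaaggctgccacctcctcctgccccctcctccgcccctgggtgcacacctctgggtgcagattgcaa
The Cry1 window holds both elements and the Nr1d1 window an E-prime box. The windows of Nr1d2, which was higher in tumour cells, and of Dbp, which was lower, hold neither. Of the 9 members with a window, 2 have an E-box (Cry1 and Per1) and 3 an E-prime box (Cry1, Cry2 and Nr1d1). Counted by window, 2 of 13 hold an E-box and 3 of 13 an E-prime box. Sites outside these 250 bases were not searched. Both strands were searched. Over 32851 windows of the same length, 6.02% hold the E-box and 3.85% the E-prime box. The D-box (TTATGTAA or TTACGTAA) is in 0.931% of windows and, among the members, in that of Per3, and the ROR element (TAGGTCA or TGGGTCA) is in 5.38% of windows and in none of the 13.

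The wider clock pathway was measured through 23 other genes. Between tumour cells and bone marrow 8 of 23 were higher and 5 lower, where 15.2% and 19.8% of all genes were. Between tumour cells and spleen 6 were higher and 2 lower, against 12.1% and 21.7% of all genes. Between bone marrow and spleen 4 were higher and 2 lower, against 7.41% and 12% of all genes. Bhlhe40 (Dec1), a repressor that competes for E-boxes, averaged 73.5 ± 25.8 CPM in tumour cells, 5.95 ± 4.24 CPM in bone marrow and 11.2 ± 9.1 CPM in spleen. Its tumour columns began at 37.1 CPM, above the highest bone marrow column at 11.6 CPM and the highest spleen column at 21.4 CPM. Its relative Bhlhe41 (Dec2) had 284 counts in tumour cells, 3 in bone marrow and 24 in spleen. Rora, a receptor that activates at the ROR elements where the NR1D receptors repress, had 42 counts in tumour cells, 2 in bone marrow and 6 in spleen. It was higher in tumour cells than in both organs. Nfil3, a repressor at D-boxes, averaged 2.88 ± 2.98 CPM in tumour cells, 13.6 ± 9.2 CPM in bone marrow and 2.14 ± 2.55 CPM in spleen. It was lower in tumour cells than in bone marrow and higher in bone marrow than in spleen.

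Genes that respond to handling, glucocorticoids or heat were read beside the clock genes. In the same fit 15.2% of all genes were higher and 19.8% lower in tumour cells than in bone marrow, and 12.1% were higher and 21.7% lower than in spleen. Of 8 immediate early genes, 5 were higher and 1 lower in tumour cells than in bone marrow, and 4 were higher and 0 lower than in spleen. Fos averaged 74.8 ± 32.5 CPM in tumour cells, 12.1 ± 11.2 CPM in bone marrow and 1.201 ± 1.82 CPM in spleen. Of 5 glucocorticoid responsive genes, 0 were higher in tumour cells than in either organ, while 2 were lower than in bone marrow and 1 was lower than in spleen, the last a share near that of all genes. Tsc22d3 averaged 3.23 ± 3.30 CPM in tumour cells, 38.6 ± 18.96 CPM in bone marrow and 47.8 ± 43.04 CPM in spleen. Of 5 heat shock genes, 3 were higher in tumour cells than in bone marrow, and 1 was higher and 2 lower than in spleen. Whether these genes bear on the clock genes was not tested.

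Differences in phase between animals of a tissue would spread the clock genes from column to column. The index of dispersion, which is 1 under counting error alone, ranged over 0.506 to 1.56 for the members in tumour cells, 0.122 to 1.86 in bone marrow and 0.242 to 2.21 in spleen. Nr1d1, the deepest member, had 0.506 in tumour cells, 1.86 in bone marrow and 2.15 in spleen, against medians of 1.38, 1.77 and 2.71 among genes with a like total count. Dbp had 1.17 in tumour cells against a median of 1.07, 1.37 in bone marrow against 1.19 and 1.76 in spleen against 1.52. Per2 in spleen had the highest index of all members and tissues, at 2.21 against 1.06, from 10 counts in all, with 4 columns at 0.

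**Figure D3:**
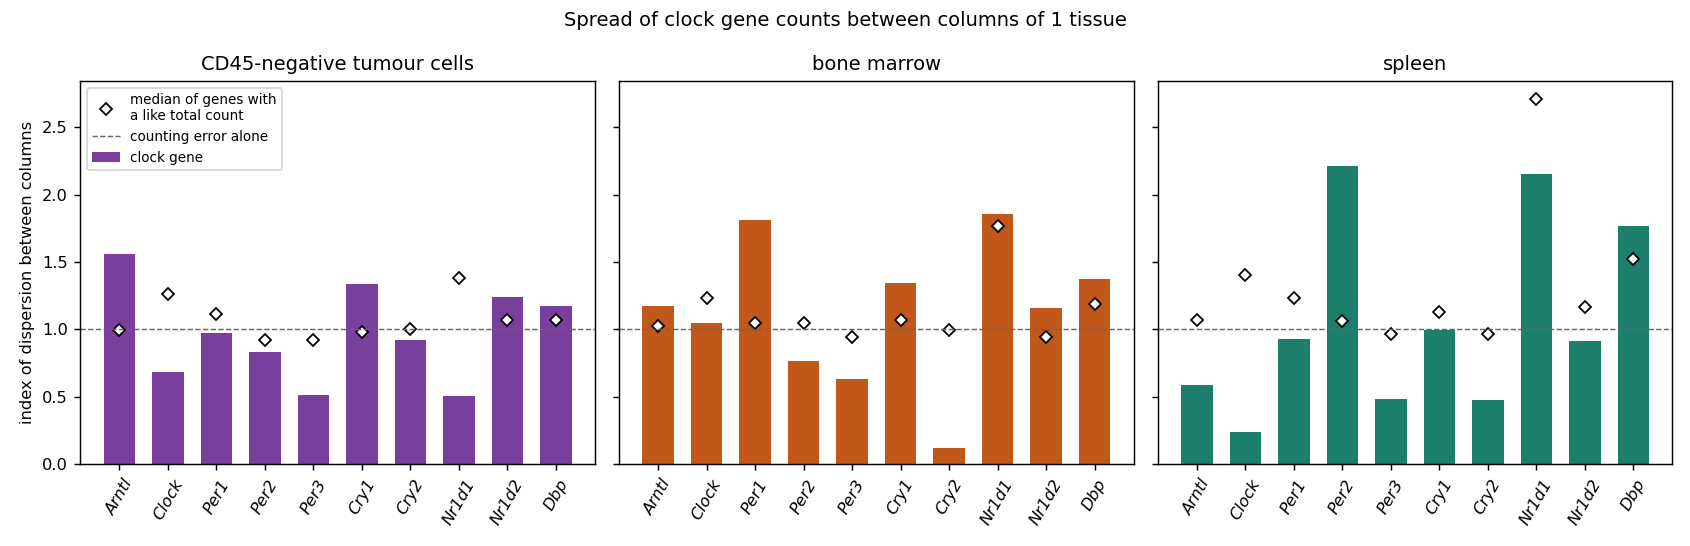
Bars give the index of dispersion (vertical axis) of each clock gene between columns of CD45-negative tumour cells, bone marrow and spleen, diamonds give the median of genes with a like total count, and the dashed line marks counting error alone. Nr1d1 in tumour cells, at 0.506, and Clock in spleen, at 0.242, lie below both marks, and Per2 in spleen, at 2.21, lies above both.

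Members were also compared with Arntl across the columns of each tissue. Arntl itself had 0 to 6 counts per column, so these comparisons could miss a relation and cannot show that there is none. In a fit of the slope on the log2 CPM of Arntl over all genes with a count, 0 of 9 other members passed in tumour cells, in bone marrow or in spleen, with edgeR. There, 0.0966% of all genes passed in tumour cells, 0.0207% in bone marrow and 3.64% in spleen. None of the 9 reached an unadjusted p of 0.05 in any of the 3 tissues. At the minimum count limma had 0 members to test in tumour cells and 1 in each organ, Nr1d1, which it did not call. Nr1d1 against Arntl gave r = 0.350 and rho = 0.413 in tumour cells (n = 12, permutation p = 0.271 and 0.182), r = -0.07 and rho = -0.48 in bone marrow (n = 8, exact permutation p = 0.898 and 0.231) and r = 0.06 and rho = 0.28 in spleen (n = 8, exact permutation p = 0.894 and 0.505). Without the 2 columns farthest from the median of Arntl, r was 0.07, -0.57 and 0.04. In spleen, leaving out those columns, which are both at 0 for Arntl, moved other members further. Over the 6 columns left, r with Arntl was -0.87 for Cry1, -0.80 for Per1 and -0.78 for Per2, against -0.01, -0.03 and -0.19 over all 8. Exact permutation p-values over the 6 columns were 0.0236, 0.0667 and 0.0583, and each was 0.5 adjusted over the 30 relations. In tumour cells Cry1 moved to r = 0.679 over 10 columns (permutation p = 0.0335, adjusted p = 0.5), against 0.328 over all 12. The tumour columns left out were at 0 for Arntl, as were others that stayed, and column order decided between them. Of 30 relations computed over all columns of a tissue, the smallest p was that of Nr1d1 with Dbp in tumour cells. It had r = 0.577 (n = 12, permutation p = 0.0495) and rho = 0.538 (permutation p = 0.0755). Adjusted over the 30 relations these were 0.949 and 0.822, and r was 0.204 without the 2 extreme columns.

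The non-member genes most like Arntl by the p of the slope were Cryab, Pgam2 and Erap1 in tumour cells (12 columns, adjusted p = 0.9999 each) and Srgn, Ranbp2 and Ube2d3 in bone marrow (8 columns, adjusted p = 0.530 each). In spleen they were Fcamr, Psd and Vmn2r97 (8 columns, adjusted p = 0.0213, 0.0225 and 0.0369). The smallest p for a negative slope fell to Car9, Surf4 and Ruvbl2 in tumour cells, to Donson, Trim13 and Mfsd3 in bone marrow and to Nptn, Ccdc24 and Fam166a in spleen. At the minimum count of 10, 114 of 1803 genes passed in spleen, or 6.32%, against 0 of 1901 in tumour cells and 0 of 3195 in bone marrow, with edgeR. limma called 131 in spleen and 0 in the others, and 41 genes in tumour cells and 283 in bone marrow were at an unadjusted p below 0.05 with edgeR. The spleen count was 0 without the 3 columns that stood apart. Those 3 include both spleen columns without an Arntl count, which had the highest erythroid marker sums, at 2942 and 3005 CPM.

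Knockout and wild-type tumour cells were compared in the authors' deposited table, whose fold change has no stated direction. The authors' deposited table lists 8 of the 10 members. Positive log2 fold changes were listed there for 4 members and negative ones for 4, and 0 had an adjusted p below 0.05, against 0.644% of its 11340 genes. It also gave 0 members an unadjusted p below 0.05, and no other tool was run on it. Dbp had the smallest p of the members in the authors' deposited table, with a log2 fold change of 1.06 (p = 0.0501, adjusted p = 0.298). Nr1d1 had 0.45 (adjusted p = 0.447) and Arntl 0.10 (adjusted p = 0.951) in the authors' deposited table. Clock had -0.52 (adjusted p = 0.488) and Cry1 -1.04 (adjusted p = 0.556) in the authors' deposited table. Over the 8 members the authors' deposited table has a median of 0.00, and over all its genes one of -0.14. Qpctl, the targeted gene, had 0.69 in the authors' deposited table (p = 0.169, adjusted p = 0.494), so that comparison did not call it either. In the counts Qpctl averaged 13.8 ± 7.8 CPM in tumour cells, 21.2 ± 7.0 CPM in bone marrow and 29.8 ± 16.3 CPM in spleen. With both genotypes mixed in each tissue, these levels check no label.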

How the data were processed

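The authors deposited a table of raw counts per gene and a table of their tumour comparison. Per the labels' protocols, libraries were made with the TruSeq Stranded mRNA kit and read as pairs of 50 bases. GRCm38 and mm10 are the builds, and HISAT2 and edgeR the tools, in the submitters' processing notes. The counting program was not given in the sources used here, nor was a strand setting. Their comparison table gives for each gene, per the file headers, log2 values (a fold change and a mean CPM), an F score, and p-values before and after adjustment.

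Of the 48 count columns 28 were mapped to a tissue by name, and 20 lymph node columns, which show no tumour state, were not used. Of 5 planned tissue comparisons 1 could therefore be made, and tumour cells were set against bone marrow and spleen instead, a choice made after the data were seen. The members and gene lists were chosen with earlier results of these data known. Named genes are the 10 members, the listed clock genes and, per tissue, the 3 genes of smallest p for each sign of the slope on Arntl. Some genes under this rule are not reported here.

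Counts were fitted with edgeR 4.0.16 in R 4.3.3 (quasi-likelihood test, TMM, all 28 columns in 1 fit). Filters were the default minimum count of 10, a minimum of 2, and at least 1 count in total. DESeq2 1.42.0, limma 3.58.1, other scalings, a fold of 1.5 and fits without columns were alternatives. Log2 CPM used a prior count of 2. CPM per kilobase used GENCODE M21 exons, whose gene coordinates are those of the file for 99.0% of genes. The index of dispersion is the Pearson chi-square over its degrees of freedom, set against genes within 0.5 log2 units of total count. Intervals are 95% exact intervals and cover counting error only. The fits were tested on simulated data. No pair of columns was identical, and the closest pair differed beyond sampling noise (chi-square per degree of freedom 1.37). Whether columns are separate animals is not stated in their names, so p-values measure the spread between columns, which holds both genotypes. Permutation tests used numpy 2.4.6, and the ranks and adjusted p-values of the correlations used scipy 1.17.1.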

Additional observations from a re-analysis of the deposited data

Results flagged for a closer look

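Dbp in bone marrow had 1 column at 37.96 CPM, far from the nearest other column at 21.5 CPM. The gap was 0.540 of the group's whole range. Chance flags about 1 in 20 groups, and 20 groups of a clock gene in an organ were looked at. The column holds 15 Dbp counts.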

How the results depend on the processing

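The number of members that passed depended on the minimum count, which set how many were tested. Between tumour cells and bone marrow 1 member passed by default, 0 against a fold of 1.5, 4 at a minimum count of 2 and 5 without a minimum. That 5 was also the count with DESeq2, with size factors by relative log expression (RLE), with column totals, with only the groups compared and without the shallowest tumour column, and 2 passed against a fold of 1.5. By default 1 member was tested and 70.1% of 5143 genes passed. Without a minimum 10 members were tested and 35% of 24548 genes passed. Shares of all genes under the other settings of this comparison are not given here. Between tumour cells and spleen 1 passed by default, 0 against a fold of 1.5 with or without the minimum, and 2 at a minimum of 2, without a minimum, with DESeq2, column totals, only the groups compared or without the shallowest tumour column. It was 3 with RLE or without the 3 spleen columns that stood apart, where Per2 joined. Of all genes 68.1% passed by default and 33.8% without a minimum. Between bone marrow and spleen 0 passed, except 1 at a minimum count of 2. Of all genes 38.4% passed there by default, 28.8% at a minimum of 2 and 19.4% without a minimum. Of single members, 3 results gained a call, 5 lost one and 206 did not change their side, and none reversed. All 5 losses came against a fold of 1.5 (Cry1, Nr1d1 and Dbp between tumour cells and bone marrow, Nr1d1 and Dbp between tumour cells and spleen). No member passed in the slope on Arntl under any setting, where at most 1 member was tested unless the minimum count was lifted, when 9 were.

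RLE moved the median of all genes at the default minimum to -0.18 for tumour cells minus bone marrow and -0.19 for tumour cells minus spleen, against -0.03 and 0.01 with TMM. By default 3607 of 5143 genes passed for tumour cells minus bone marrow, 3502 for tumour cells minus spleen and 1977 for bone marrow minus spleen. Without a minimum these were 8585, 8296 and 4761 of 24548 genes. At a minimum of 2 these were 6821, 6207 and 3422 of 11864 genes, and bone marrow minus spleen gave 1089 against a fold of 1.5. In spleen 114 genes followed Arntl, 753 without a minimum, 69 with RLE, 58 with library size as a term, and 0 with the first principal component as a term, without the 2 extreme columns or on Dbp. No paired analysis was possible because column names hold a running number and neither mouse number nor genotype. The sample titles number the mice 1 to 4 within each genotype in both bone marrow and spleen, so the organs may come from the same mice, and the fit treats their columns as independent. The same changes of setting were not run for the lymph node groups.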
